A study of Mus musculus with 12 samples.

Results

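Transcripts of protein tyrosine phosphatases and dual-specificity phosphatases were compared between CD8 T cell libraries labelled Foxp3 scurfy and Foxp3 wild type. The genes were the rows of the deposited table whose symbol begins with Dusp, Ptpn, Ptpr or Ptp4a followed by the number or letter of a family member. That rule found 38 of the 11581 genes of the table. Of these, 14 are non-receptor phosphatases (Ptpn), 8 carry a receptor-type symbol (Ptpr), 7 are MAP kinase phosphatases (Dusp1, Dusp2, Dusp5, Dusp6, Dusp7, Dusp10 and Dusp16), 6 are atypical dual-specificity phosphatases (other Dusp) and 3 are phosphatases of regenerating liver (Ptp4a). Ptprcap matches the rule by its letters but encodes a small protein that associates with CD45 and has no phosphatase domain, and GENCODE M21 annotates Ptprv as a processed transcript and not as a coding gene. Family members without a row were not analysed here.

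Protein tyrosine phosphatases remove phosphate from tyrosine and so oppose, or in some positions enable, the tyrosine kinases that relay signals from the T cell receptor. CD45, the product of Ptprc, removes an inhibitory phosphate from the kinase Lck and is needed for T cell receptor signalling, whereas the products of Ptpn22 and Ptpn6 (SHP-1) dampen it. Dual-specificity MAP kinase phosphatases such as those encoded by Dusp1 and Dusp2 inactivate the kinases ERK, JNK and p38, and many of their genes are themselves induced when those kinases are active.

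The cells came from C57BL/6 J recipients (CD45.2+) given mixed bone marrow and sampled 2 months after reconstitution. A part of the marrow came from OT-1 donors, whose T cells carry a transgenic receptor for the ovalbumin peptide SIINFEKL, and these donors were CD45.1+/2+ and either Foxp3Scurfy or Foxp3wt; the other part came from CD45.2+ donors in every group. Scurfy mice carry a mutation that abolishes the function of Foxp3, a transcription factor studied mostly in regulatory T cells. The series holds 12 samples in 4 groups of 3, scurfy or wild type, unstimulated or given the peptide for 6 h, and only the 3 unstimulated scurfy and 3 unstimulated wild-type libraries are compared here, since both deposited tables carry these 6 columns with the same values. The labels describe purified CD8 T cells without saying whether CD45.1 was used to separate OT-1 cells from the CD45.2+ donors' cells. They do not say either that each library came from a separate mouse, so a p-value here is set against library-to-library spread that may be only technical.

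The 6 libraries held 8852518 to 23149523 reads over the 11581 genes. Values are normalized counts, that is reads divided by a size factor of each library, and 3 reads correspond to 1.45 to 3.99 normalized counts. Where a sentence lists 3 values for a group, they are libraries 1, 2 and 3 in that order. Foxp3 has no row, and the genotype labels could not be checked with it. All 9 CD8 T cell markers had rows, with a summed level of 68766 to 76491 normalized counts in scurfy and 60445 to 61715 in wild-type libraries, and 2 of them (Cd3d and Cd2) were higher in scurfy. Rows existed for 7 of 13 B cell markers, 2 of 12 myeloid, 1 of 6 natural killer, 1 of 7 erythroid and 1 of 5 CD4 T cell markers. Summed B cell markers ran from 9895 to 11352 in scurfy and from 10971 to 11753 in wild-type libraries, of which Ighm alone made up 9504 to 11206 over all 6 libraries. The MHC class II gene H2-Aa was lower in scurfy and at 0 in scurfy library 2, H2-Ab1 was at 0 in scurfy libraries 2 and 3, and Ms4a1 and Cd79a had no row. Summed myeloid markers ran from 1463 to 1579 in scurfy and from 850.2 to 1172 in wild type. Cst3, which was higher, alone made up 1406 to 1523 in scurfy and 821 to 1131 in wild type. Cd68 was at 56.7 to 61.8 against 29.0 to 41.1 and did not pass (limma adjusted p = 0.210). The other 10 myeloid markers, Lyz2, Csf1r, Itgam and Tyrobp among them, had no row. Nkg7, the natural killer marker with a row, was higher at 2551 to 2807 against 1326 to 1986. Ncr1, Klrb1c, Klra4, Klra8 and Tyrobp of the natural killer list had no row. Car2 of the erythroid list was lower at 101 to 156 against 232 to 315. Ctla4 of the CD4 T cell list was at 47.3 to 80.5 against 45.2 to 67.1.

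In the unstimulated scurfy libraries Ptprc and Ptpn22 were lower in limma and in both count-based tests, edgeR and DESeq2. No phosphatase gene was higher past the threshold in limma or edgeR, while DESeq2 called 3 members higher (Ptpn7, Ptpn21 and Ptprcap). The authors' deposited values match this DESeq2 run, so they are not a second test. Ptprc fell 1.67-fold and Ptpn22 1.38-fold. The limma calls are 2 of 38 members, or 5.26%, at an adjusted p under 0.05 in limma, a linear model with a shared estimate of spread fitted across all genes. Over all genes 4.47% passed, 2.12% higher and 2.35% lower, so the family's share was near the background. At an unadjusted p under 0.05 there were 9 members, 4 higher and 5 lower, or 23.7% against 21.2% of all genes. For 8 members the groups had no overlap in values, 4 higher and 4 lower, which is 21.1% against 27.1% of all genes. The median log2 fold change, scurfy minus wild type on the log2(value + 1) scale, was -0.05 over the members and 0.01 over all genes, and 29 of the 38 members lay within 0.5 of zero.

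**Figure D1:**
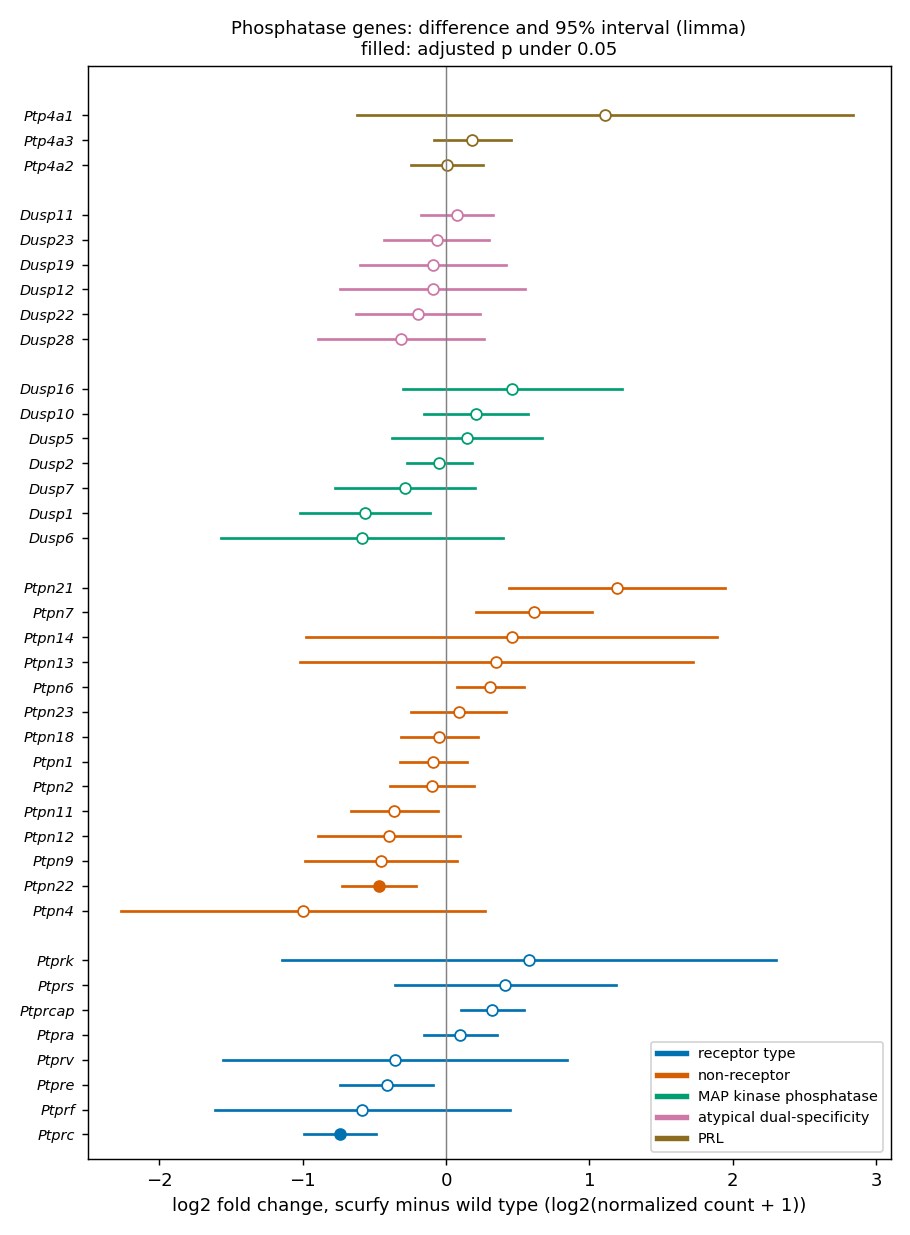
Log2 fold change (x axis, scurfy minus wild type, log2 of normalized count + 1) of each of the 38 genes (rows, coloured by class), with limma's 95% interval as a line and filled points for an adjusted p under 0.05. The filled points are Ptprc at -0.74 and Ptpn22 at -0.47, and the widest intervals belong to genes with few reads such as Ptp4a1 and Ptprk.

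Ptprc (ENSMUSG00000026395, chromosome 1 in GENCODE M21) encodes CD45, the abundant receptor-type phosphatase of the leukocyte surface. Its normalized counts were 5424, 5470 and 4694 in the scurfy libraries and 7514, 8833 and 9736 in the wild-type libraries. Every scurfy library lay below every wild-type library, the closest pair being scurfy 2 and wild type 1. The mean was 5196 ± 435 in scurfy and 8694 ± 1117 in wild type (SD, n = 3 each). The mean of the scurfy libraries thus fell by 40.2%. The log2 fold change was -0.74 (SE 0.12, 95% interval -0.99 to -0.49, limma adjusted p = 0.00551). Without each of the 6 libraries in turn the call held, with limma adjusted p from 0.00701 to 0.0249. CD45.1 and CD45.2 are allelic forms of this gene, and the table gives 1 value for both, so the shares of the alleles were not analysed here. In bulk RNA such as this, fewer cells of a type and less RNA per cell cannot be told apart. Ptprc is also expressed by B and myeloid cells, whose markers are given above, and their part in the difference was not tested.

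Ptpn22 (ENSMUSG00000027843, chromosome 3) encodes a cytosolic phosphatase that binds the kinase Csk and acts on Lck and ZAP-70. Its counts were 2263, 2363 and 2151 in the scurfy libraries and 2656, 3114 and 3679 in the wild-type libraries. The groups did not overlap, and the wild-type libraries were spread over a wider range than the scurfy ones. The mean was 2259 ± 106 in scurfy and 3149 ± 512 in wild type (SD, n = 3 each), with a log2 fold change of -0.47 (SE 0.12, 95% interval -0.72 to -0.21, limma adjusted p = 0.0414). It was lost in 5 of the 6 fits that omit a single library, with limma adjusted p up to 0.139 without wild-type library 3, where the log2 fold change was -0.35. Among these fits it held only without wild-type library 1 (0.0271).

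Exonic length moves with these values. Across the table genes of under 1000 exonic bases (n = 1098) had a median of 0.33 on the log2 scale, and those of over 4000 (n = 5881) a median of -0.05. Ptprc has 18313 bases of exon in GENCODE M21 and Ptpn22 6775, and the members' median was 5580 against 4075 over all genes. With a smooth length trend taken out of each library, Ptprc was at -0.58 and kept its call (limma adjusted p = 0.0276), while Ptpn22 was at -0.40 and did not pass (0.0852).

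The stretches upstream of Ptprc, Ptpn22, Ptpn6 and Dusp2 are printed here as a description. A link between the composition of promoters and the log2 fold changes was not tested. Each is the 250 bases before the 5′-most RefSeq start on GRCm38.p6, written 5′ to 3′ along the gene's strand, with CG dinucleotides in capitals.
Ptprc (chr1:138175306-138175555, minus strand): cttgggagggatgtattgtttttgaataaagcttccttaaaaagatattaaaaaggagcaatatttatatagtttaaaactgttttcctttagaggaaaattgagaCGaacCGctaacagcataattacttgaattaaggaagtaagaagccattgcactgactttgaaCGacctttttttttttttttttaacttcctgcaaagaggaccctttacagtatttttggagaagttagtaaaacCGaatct
Ptpn22 (chr3:103859545-103859794, plus strand): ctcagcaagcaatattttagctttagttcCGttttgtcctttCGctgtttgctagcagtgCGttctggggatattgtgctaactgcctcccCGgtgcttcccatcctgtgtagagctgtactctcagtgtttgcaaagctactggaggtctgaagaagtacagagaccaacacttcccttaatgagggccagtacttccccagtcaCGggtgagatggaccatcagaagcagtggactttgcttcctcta
Ptpn6 (chr6:124738710-124738959, minus strand): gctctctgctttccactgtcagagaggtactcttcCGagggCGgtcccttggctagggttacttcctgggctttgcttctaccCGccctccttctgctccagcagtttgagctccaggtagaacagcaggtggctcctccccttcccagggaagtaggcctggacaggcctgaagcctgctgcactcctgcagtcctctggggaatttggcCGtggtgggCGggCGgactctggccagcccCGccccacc
Dusp2 (chr2:127335909-127336158, plus strand): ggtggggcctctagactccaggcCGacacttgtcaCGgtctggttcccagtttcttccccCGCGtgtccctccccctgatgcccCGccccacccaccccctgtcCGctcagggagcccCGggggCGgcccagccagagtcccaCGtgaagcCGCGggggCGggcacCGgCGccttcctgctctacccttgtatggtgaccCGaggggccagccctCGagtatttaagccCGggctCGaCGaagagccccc
The Ptprc stretch holds 4 CG dinucleotides and 31.6% G or C, the lowest G and C content of the 39 member promoters of the table (32 of the 38 genes matched). Ptpn22 has 5 CG dinucleotides and 49.2% G or C, Ptpn6 has 7 and 63.2%, and Dusp2 has 19 and 70.4%. The median over the 39 member promoters was 18 CG dinucleotides and 64.0% G or C, and over all 32851 promoters 6 and 52.4%. Over the 32 member promoters at a 5′-most start, as printed here, it was 20 and 66.4%. Other RefSeq starts of the called genes were at 36.8% for Ptprc and 46.0% for Ptpn22. The 2 stretches of Ptprc overlap in part, so they are not separate values. Dusp12 at 46.0% and another start of Ptpre at 45.6% were also low, both genes that did not pass in limma. The core forkhead motif GTAAACA, searched on both strands in the same 250 bases, occurs in 1 of the 39 member promoters, that of Ptpra, and in 3.17% of all promoters. Its absence from the stretches above says only that these letters are not in them.

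The other receptor-type genes did not pass in limma. Ptpre, a phosphatase with membrane and cytosolic forms, was at 358, 323 and 333 normalized counts in the scurfy libraries and at 522, 422 and 415 in the wild-type libraries. The groups did not overlap, with a log2 fold change of -0.41 (SE 0.15, limma adjusted p = 0.131). On library size alone, without the authors' size factors, Ptpre passed at -0.55 (0.0378). Under that scaling the median over all genes fell by 0.14 log2 units. Ptpra, a widely expressed activator of Src-family kinases, was at 0.10 with a 95% interval of -0.15 to 0.35. Ptprs and Ptprf, which are best known from neurons and epithelia, were low, with means of 79.1 ± 31.7 and 22.6 ± 8.36 in scurfy and 58.7 ± 20.4 and 35.6 ± 15.7 in wild type. Ptprk and Ptprv were lower still, at means of 15.3 ± 3.56 and 14.8 ± 6.49 in scurfy and 15.3 ± 14.5 and 17.9 ± 1.78 in wild type. Their 95% intervals ran from -1.14 to 2.30 and from -1.56 to 0.84.

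Ptprcap (ENSMUSG00000045826, chromosome 19), the CD45-associated protein, stood at 8383, 8774 and 7997 normalized counts in the scurfy libraries and at 6576, 6306 and 7240 in the wild-type libraries. Its groups did not overlap in the direction opposite to Ptprc, with a log2 fold change of 0.32 (SE 0.10) that did not pass in limma (adjusted p = 0.0859). The ratio of Ptprcap to Ptprc, a comparison chosen after their values were seen, was 1.55, 1.60 and 1.70 in the scurfy libraries and 0.875, 0.714 and 0.744 in the wild-type libraries. The log2 ratio differed by 1.06, given as a description with no test, since the values of both genes already separated the groups in opposite directions. With the length trend removed the difference between the log2 fold changes of these genes was 0.81, Ptprcap having 1611 bases of exon. In GENCODE M21 exons of Ptprcap overlap Coro1b on the same strand and Rps6kb2 on the other, so its count is uncertain.

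Among non-receptor phosphatases the log2 fold changes of greatest size were those of Ptpn21 and Ptpn4, and neither passed in limma. Ptpn21 (ENSMUSG00000021009, chromosome 12) was at 67.8, 48.8 and 61.5 normalized counts in the scurfy libraries and at 27.9, 26.1 and 21.8 in the wild-type libraries. All scurfy libraries were above all wild-type libraries, on 40 to 56 reads in scurfy and 21 to 54 in wild type. The log2 fold change was 1.19 (SE 0.35, 95% interval 0.44 to 1.95, limma adjusted p = 0.0684). Ptpn7, also called HePTP, a haematopoietic phosphatase of ERK and p38, was at 300.3, 366 and 500.02 in the scurfy libraries and at 251, 255 and 238 in the wild-type libraries. Again the groups did not overlap, with scurfy library 3 far above the other scurfy libraries. Its log2 fold change was 0.62 (SE 0.19, limma adjusted p = 0.0767), and 0.42 (0.241) without scurfy library 3. Without scurfy library 1 Ptpn7 passed, at 0.79 (0.0428).

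Ptpn6 (ENSMUSG00000004266, chromosome 6), which encodes SHP-1, a phosphatase recruited by inhibitory receptors, had 1736, 1851 and 1731 normalized counts in the scurfy libraries and 1380, 1334 and 1592 in the wild-type libraries. The scurfy libraries lay above the wild-type ones, with means of 1773 ± 68.1 and 1435 ± 138 (SD, n = 3 each). The log2 fold change of 0.31 (SE 0.11, 95% interval 0.08 to 0.54) did not pass in limma (adjusted p = 0.118), nor under any of the 15 alternatives (adjusted p from 0.0997 to 0.413). Ptpn11, which encodes the related SHP-2, a phosphatase that promotes growth factor and cytokine signalling, had 427, 434 and 426 in the scurfy libraries and 479, 611 and 572 in the wild-type libraries. Its groups did not overlap either, on the lower side, at -0.36 (SE 0.14, limma adjusted p = 0.157). The SH2-domain pair thus had log2 fold changes of opposite sign, neither past the threshold.

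The remaining non-receptor members had smaller or noisier differences. Ptpn1 and Ptpn2, which act on JAK kinases and STAT factors, were at -0.09 and -0.10, with 95% intervals of -0.32 to 0.14 and -0.39 to 0.20. Ptpn18, by its mean the most abundant member in counts, was at 13911 ± 1152 (scurfy) and 14438 ± 2191 (wild type), a log2 fold change of -0.05. Its groups overlapped, and the widest gap between libraries lay within wild type. Ptpn9 was at -0.45 (limma adjusted p = 0.313) and Ptpn12, which acts on cytoskeletal adaptors, at -0.40 (0.345). Ptpn23 was at 0.09. Ptpn14 and Ptpn13, both with under 20 normalized counts on average, were at 0.46 and 0.35 with 95% intervals of -0.97 to 1.89 and -1.02 to 1.72.

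**Figure D2:**
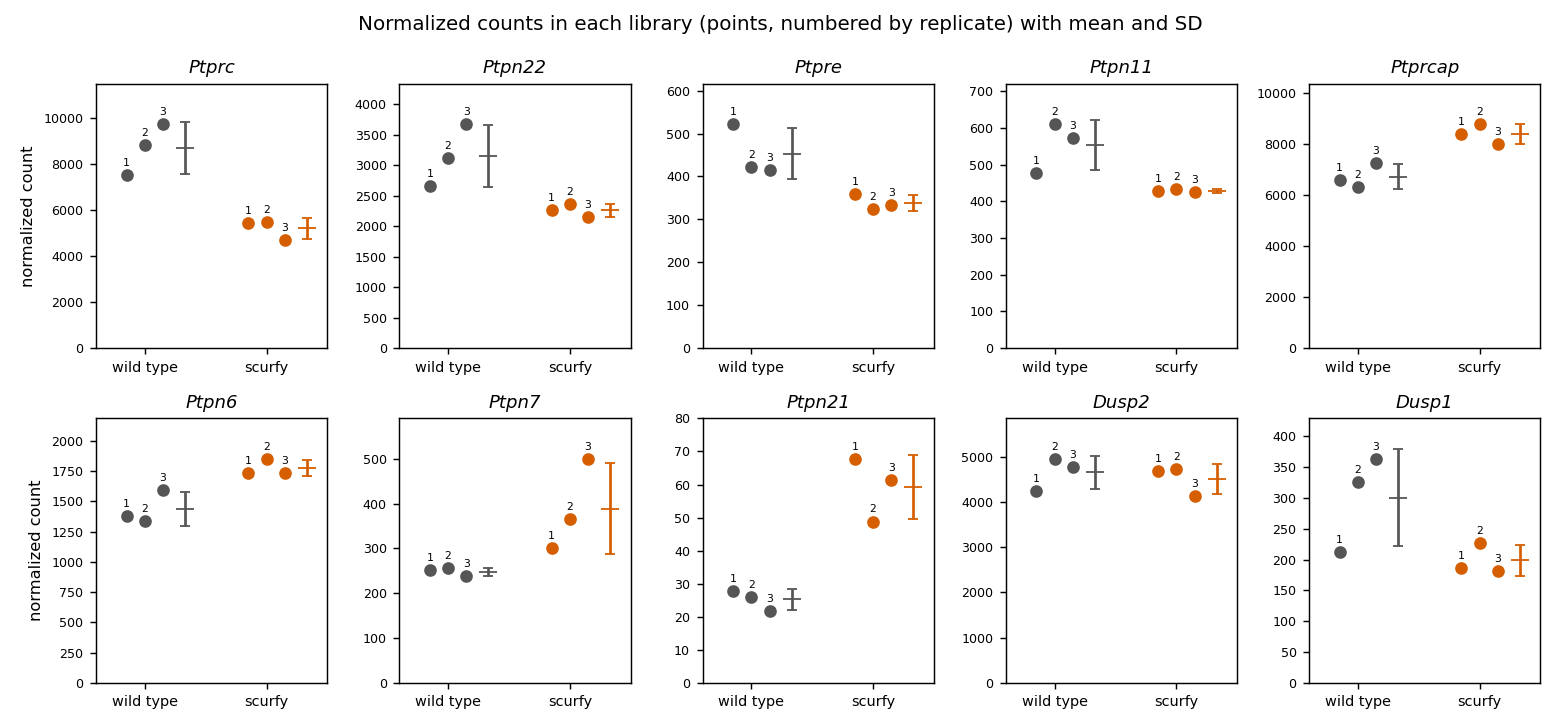
Normalized counts (y axes, each from 0) of 10 genes in the 3 wild-type (grey) and 3 scurfy (orange) libraries, numbered by replicate, with the mean and SD beside them. The first 4 panels show genes lower in every scurfy library (Ptprc, Ptpn22, Ptpre, Ptpn11), the next 4 genes higher in every scurfy library (Ptprcap, Ptpn6, Ptpn7, Ptpn21), and Dusp2 and Dusp1 overlap between the groups.

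None of the 7 MAP kinase phosphatases passed in limma, edgeR or DESeq2, and 1 had an unadjusted p under 0.05 in limma. Over all genes 4.47%, 4.84% and 7.69% passed in these tests, and 21.2% had such an unadjusted p. With 7 genes these counts do not set the class apart. Dusp2, the phosphatase of ERK and p38 that T cells induce on activation, was at 4679, 4739 and 4126 normalized counts in the scurfy libraries and at 4250, 4959 and 4776 in the wild-type libraries. The groups overlapped almost fully, and the log2 fold change was -0.05 with a 95% interval of -0.27 to 0.18 (limma adjusted p = 0.844). Dusp1, an immediate-early gene, had 186, 227 and 182 in the scurfy libraries and 213, 325 and 363 in the wild-type libraries. It was lower on average at -0.57 (SE 0.21, limma adjusted p = 0.139), with scurfy library 2 above wild-type library 1. Its exons overlap Ergic1 on the other strand.

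The ERK-induced and ERK-directed Dusp6 was near the lower end of the table, at 19.7 ± 2.14 (scurfy) and 31.7 ± 12.3 (wild type; log2 fold change -0.58, limma adjusted p = 0.499). Dusp5, which acts on nuclear ERK, was at 0.14, Dusp7 at -0.29, and Dusp10 and Dusp16, which prefer JNK and p38, at 0.21 and 0.46. All 4 had overlapping groups, and leaving out single libraries moved their values both ways. Dusp5 was at 0.051 without scurfy library 2 and at 0.27 without scurfy library 1. Dusp7 was at -0.064 without scurfy library 2 and at -0.43 without scurfy library 1. Dusp10 was at 0.038 without wild-type library 1 and at 0.37 without wild-type library 3. Dusp16 was at 0.27 without scurfy library 2 and at 0.72 without wild-type library 1. Dusp10 had 447, 458 and 440 in the scurfy libraries against 304, 392 and 486 in the wild-type libraries, so that the wild-type values lay on both sides of the scurfy values.

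None of the 6 atypical dual-specificity phosphatases and none of the 3 Ptp4a genes passed in limma, edgeR or DESeq2, or had an unadjusted p under 0.05 in limma, and none had groups that did not overlap. Over all genes 4.47%, 4.84% and 7.69% passed in these tests, 21.2% had such an unadjusted p and 27.1% had no overlap. With 6 and 3 genes these counts do not set the classes apart. Dusp11, an RNA phosphatase, was at 3452 ± 297 (scurfy) and 3290 ± 454 (wild type; log2 fold change 0.08, 95% interval -0.18 to 0.33). The other atypical members ran from Dusp28 at -0.31 through Dusp22 at -0.20, Dusp12 at -0.09 and Dusp19 at -0.09 to Dusp23 at -0.06. Dusp12 varied most among wild-type libraries, at 125, 290 and 320 normalized counts in libraries 1 to 3. Ptp4a2 was at 2308 ± 298 (scurfy) and 2286 ± 205 (wild type; log2 fold change 0.01, 95% interval -0.24 to 0.26), and Ptp4a3 at 0.18. Ptp4a1 had a mean of 18.9 normalized counts over the 6 libraries and a log2 fold change of 1.11 with a 95% interval of -0.62 to 2.84.

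Precision followed depth. Of the 38 intervals, 25 lay within 1 log2 unit of zero on both sides and 10 within 0.5. The 8 members with a mean under 50 normalized counts had a median SD between libraries of 0.60 log2 units in scurfy and 0.69 in wild type, against 0.16 and 0.19 for the other 30. Per kilobase of exon, the highest mean level in scurfy was that of Ptprcap at 5205 normalized counts per kilobase, then Dusp2 at 2254 and Ptpn18 at 2143, the latter 2 not tested against each other. The lowest were Ptpn14 at 1.08 and Ptprk at 1.15. Since these libraries were primed at the 3′ end, counts need not grow with exonic length, and a level per kilobase does not rank expression. By mean normalized counts the highest in scurfy were Ptpn18 at 13911, Ptprcap at 8384 and Ptprc at 5196.

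**Figure D3:**
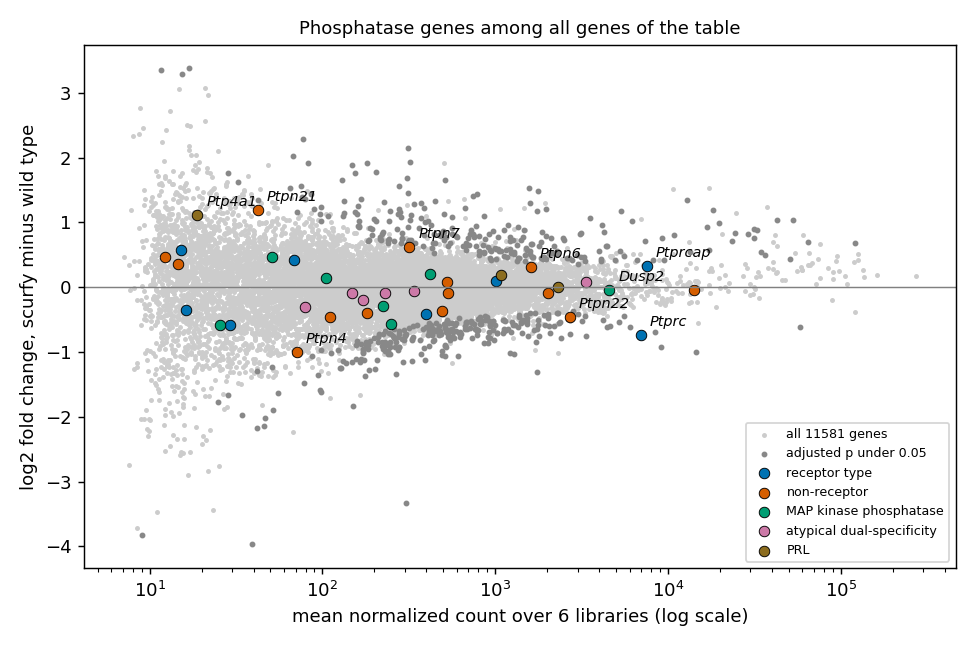
Log2 fold change (y axis, scurfy minus wild type) against mean normalized count (x axis, log scale) for all 11581 genes in light grey, those with a limma adjusted p under 0.05 in dark grey, and the 38 phosphatase genes in colour by class. Most coloured points lie in the light cloud; Ptprc at -0.74 and Ptpn22 at -0.47 are the called members.

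Count-based tests on the reads recovered from the normalized values gave the same direction for the leading members. The quasi-likelihood test of edgeR called Ptprc and Ptpn22, at adjusted p = 0.00544 and 0.0338, with 4.84% of all genes called. DESeq2 called 5 of 38, adding Ptpn7 (adjusted p = 0.0246), Ptpn21 (0.0321) and Ptprcap (0.0355) as higher, with 7.69% of all genes called. The authors' deposited values, which have the form of DESeq2 output, match this run. For Ptprc both give a log2 fold change of -0.743 and a DESeq2 adjusted p of 8.95e-07. They are thus the same test on the same reads and not a second source. They pass the same 5 of the 38 members, 3 higher and 2 lower, and the same 7.69% of all genes. No adjusted p is given for 7 members.

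**Figure D4:**
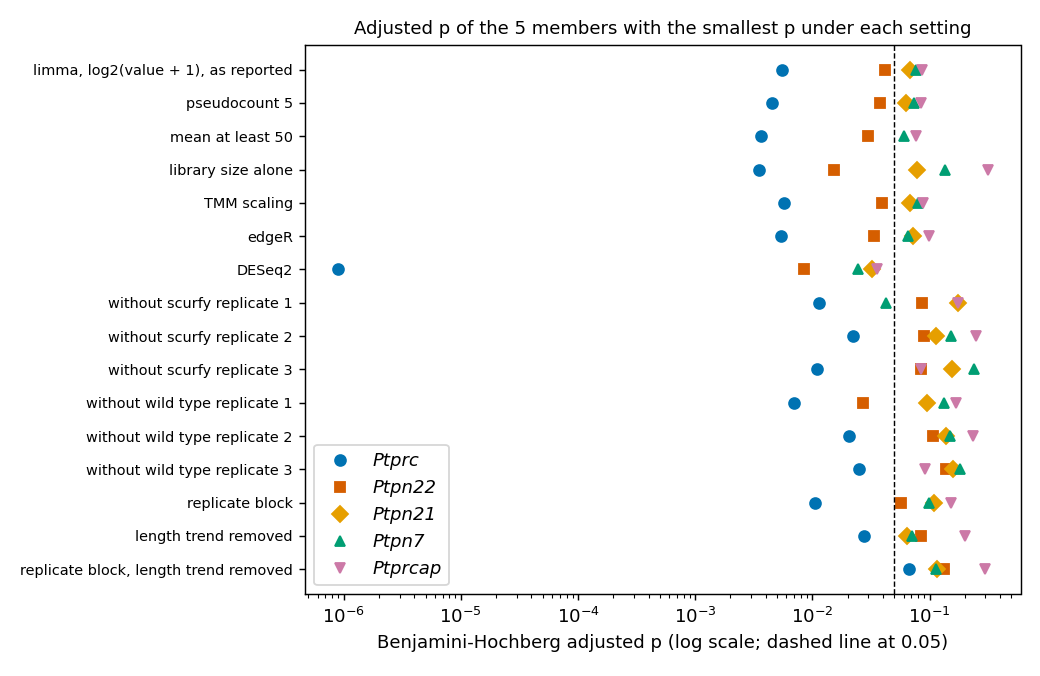
Benjamini-Hochberg adjusted p (x axis, log scale, dashed line at 0.05) of the 5 members with the smallest p under the reported setting (top row) and 15 alternatives (other rows). Ptprc lies left of the line in every row but the last (0.0662), and Ptpn22 lies right of it in 8 rows.

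Genes of the pathways these phosphatases act on were described from lists of other tyrosine phosphatases and relatives, tyrosine kinases and adaptors, the MAP kinase cascade and JAK-STAT signalling. Of 152 listed genes 129 had a row, and 7 passed in limma, 3 higher and 4 lower, or 5.43% against 4.47% of all genes. For 40 of the 129 the groups did not overlap, 11 higher and 29 lower, or 31.0% against 27.1% of all genes. The median log2 fold change was -0.04.

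Of 26 other tyrosine phosphatases and relatives with a row, 2 rose, where 2.12% of all genes did. With 26 genes this count was not read as a result about the list. Sbf1, a myotubularin relative without catalytic activity, rose from 1891 ± 102 to 2690 ± 158 normalized counts. Eya2, a transcriptional coactivator with tyrosine phosphatase activity, rose from 44.1 ± 7.17 to 99.5 ± 8.69. Of the 6 fits that omit a library, 3 lost the call of Sbf1 and 6 that of Eya2, with limma adjusted p up to 0.0648 and 0.0985.

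Of 38 tyrosine kinases and adaptors, Cd3d, a signalling chain of the T cell receptor, rose by 0.76 on the log2 scale and the other 37 did not pass, Lck, Zap70 and Csk among them. Of 43 genes of the MAP kinase cascade 2 fell. Rasgrp1, the exchange factor that activates Ras below the T cell receptor, fell from 2064 ± 309 to 1313 ± 266, and Rasa1, which switches Ras off, from 278 ± 17.5 to 170 ± 28.8. Of 22 JAK-STAT genes Socs1, a feedback inhibitor of JAK kinases, fell from 2459 ± 274 to 1650 ± 371. The called shares of the kinase, MAP kinase and JAK-STAT lists were 2.63%, 4.65% and 4.55%, against 4.47% of all genes. By this measure these lists were near or below the background. At an unadjusted p under 0.05 in limma their shares were 34.2%, 18.6% and 27.3%, against 21.2% of all genes. The groups did not overlap for 36.8%, 25.6% and 27.3%, against 27.1% of all genes. By these 2 measures the kinase list was above the background, which was not tested. The call of Cd3d held in all 6 fits that omit a library, while 4 lost that of Rasgrp1, 5 that of Socs1 and 6 that of Rasa1, with limma adjusted p up to 0.101, 0.13 and 0.144. With the length trend removed Rasa1 also lost its call (0.0865). Its exons overlap Ccnh on the other strand.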

How the data were processed

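Per the labels' protocols, cDNA was primed with barcoded oligo-dT, amplified by in vitro transcription and sequenced on a NextSeq 500. Per the submitters' processing notes, Trim Galore 0.4.4, STAR 2.6, featureCounts, edgeR and DESeq2 were used, with build NCBIM37; the strand setting and annotation are not given in the sources used here. The deposited values are a signal, namely reads over the size factor of each library, as read from the values; 100% of nonzero values were whole multiples of 1 read within 0.01 read. Beside them stand, per the file headers, the authors' log2 fold change, a score (that change over its standard error) and raw and adjusted p-values. It was filtered on low genes before deposit, the smallest mean being 7.10. The other deposited table is identical and was not used.

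Here limma 3.58.1 in R 4.3.3 was fitted across all 11581 genes on log2(value + 1), with trend and robust moderation (4 residual, 10.7 prior degrees of freedom), no covariate and Benjamini-Hochberg adjustment at 0.05. Alternatives used edgeR 4.0.16 and DESeq2 1.42.0 on recovered reads, a pseudocount of 5, a minimum mean of 50, other scalings, each library left out, a replicate block, and a length trend (lowess, span 0.3) from GENCODE M21, which holds 11571 of the gene IDs. Promoters are from RefSeq on GRCm38.p6. The script was tested on simulated data. Named were Ptprc, Ptpn6, Ptpn22 and Dusp2, called members, the 10 uncalled members with the smallest p, the highest and lowest of each class, and from each pathway list up to 6 called genes or the one with the smallest p; the others are given for completeness. One called gene of the pathway lists is counted in their total but not reported here. The members and lists were chosen with earlier results of these data known.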

Additional observations from a re-analysis of the deposited data

How the results depend on the processing

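Against 2 phosphatase genes called in limma, DESeq2 called 5, leaving out 1 library gave 1 to 2, and both the replicate block and the removal of the length trend gave 1. These last 2 together gave 0, with 7 members at an unadjusted p under 0.05 in limma, and Ptprc then stood at -0.58 (adjusted p = 0.0662). The other alternatives gave 2 or 3. Against 518 called genes in all, library size alone gave 929 (168 higher, 761 lower), DESeq2 891, leaving out 1 library 113 (without wild-type library 3) to 403, the length trend removed 302, and that with the replicate block 103. Against 7 called pathway genes, leaving out 1 library gave 1 to 5 and the replicate block 4. With the replicate block alone Ptpn22 had an adjusted p of 0.0573 in limma. Deviations from the group means correlated at -0.15 to -0.03 over 9188 genes between libraries sharing a number. Libraries of different numbers gave -0.12 to 0.16. With 3 libraries in each group these values cannot exclude a batch shared by number. The labels state no pairing, and the reported fit has no block. In all, 12 of the 38 members changed sign under at least 1 alternative, among them Ptpn13, Ptprk and Ptprv, which were not near zero. Of the members named by the rule, on library size alone Ptp4a2 was at -0.13 and Dusp11 at -0.062, and with the length trend removed Ptpn18 was at 0.016, with or without the block. Leaving out 1 library gave -0.11 to 0.018 for Dusp2, -0.091 to 0.086 for Ptp4a2, -0.16 to 0.058 for Ptpn18, -0.034 to 0.17 for Dusp11 and -0.42 to 1.36 for Ptprk. The causes were not tested. Depth limits the 8 members with a mean under 50 normalized counts, for which the median SD between libraries was 0.60 log2 units in scurfy and 0.69 in wild type.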

Other observations

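Some low members were set apart by 1 library. Ptpn4, a cytosolic phosphatase with FERM and PDZ domains, had 11 reads in scurfy library 3 against 58 and 62 in scurfy libraries 1 and 2, which is 13.0 against 70.2 and 75.7 normalized counts. Its log2 fold change of -0.997 (limma adjusted p = 0.350) was -0.20 without that library. Ptp4a1 had 1 read in wild-type library 1, against 46 and 24 in wild-type libraries 2 and 3, and its log2 fold change of 1.11 was 0.03 without that library. Ptprk had 2 reads in wild-type library 3 and 23 and 28 in wild-type libraries 1 and 2.

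In GENCODE M21, Dusp19 shares exonic bases with Nup35 on the same strand, and Ptp4a1 with another gene model of the same symbol. Dusp5, Dusp11, Dusp12, Dusp28, Ptpn6, Ptpn9, Ptpn13, Ptpn14, Ptpn18, Ptpra, Ptpre and Ptprv share them with genes on the other strand. The counts of these genes are uncertain where counting did not use strand.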
